A study of Homo sapiens with 3 samples.

Results

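The Notch genes described here are 10 of the 20033 protein-coding genes annotated in GENCODE 44: the receptors NOTCH1, NOTCH2 and NOTCH3, the ligands DLL1, DLL3 and JAG1, the DNA-binding factor RBPJ, and the effectors HES1, HES5 and HEY1. They were taken by name, and every CHD8 or TRRAP peak from 5 kb upstream of a gene to its end was assigned to it. These intervals held 30 of the 23393 CHD8 peaks and 22 of the 14735 TRRAP peaks. The study mapped CHD8 (a chromatin remodeller of the CHD family) and TRRAP (a large scaffold protein of histone acetyltransferase complexes) by ChIP-seq in wild-type neural stem cells derived from the human embryonic stem cell line H9. The cells were grown with EGF and FGF, crosslinked with 2 mM DSG and then 1% formaldehyde, and sonicated for 14 cycles. Each antibody had 1 library, so no value below has a replicate error and no difference between the antibodies was tested. No list from the IgG library was used here, and the sources used here do not say whether it was the background of the peak folds.

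Notch receptors are single-pass membrane proteins that are cut when a ligand of the Delta or Jagged family on a neighbouring cell binds them. The freed intracellular domain enters the nucleus, joins RBPJ and a Mastermind coactivator, and activates genes such as HES1, HES5 and HEY1. The HES and HEY proteins are transcriptional repressors of the basic helix-loop-helix class. In neural stem cells the pathway is known for holding back neuronal differentiation, and HES1 and HES5 are its classical effectors there. Peak lists measure occupancy and not expression, so the identity of the cells was not checked here.

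A promoter peak was a peak that overlapped the window of 1 kb either side of the gene's canonical start site. All 10 Notch genes had a CHD8 promoter peak (Wilson 95% interval 72.2 to 100%), against 55.9% of all protein-coding genes. TRRAP had a promoter peak at 9 of them (interval 59.6 to 98.2%), against 34.9% of all genes, and DLL3 was the exception. The same 9 genes had both, against 34.0% of all genes. Each of the 10 genes had at least 1 CHD8 peak and at least 1 TRRAP peak somewhere in its interval, against 64.1% and 43.3% of all genes. These intervals cover counting error only, and the genes were picked and not drawn at random. CpG content moved with these shares: in the poorest 10% of coding-gene promoters by CpG ratio (observed over expected) 1.60% had a CHD8 peak, and in the richest 10% it was 86.1%. The Notch genes lay from the fourth decile (HES1, ratio 0.62) to the highest (NOTCH1, JAG1 and RBPJ). In the fourth decile 57.0% of genes had a CHD8 peak and 25.7% a TRRAP peak, and in the highest decile TRRAP had 67.6%. The part of CpG content in the Notch counts was not tested.

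**Figure D1:**
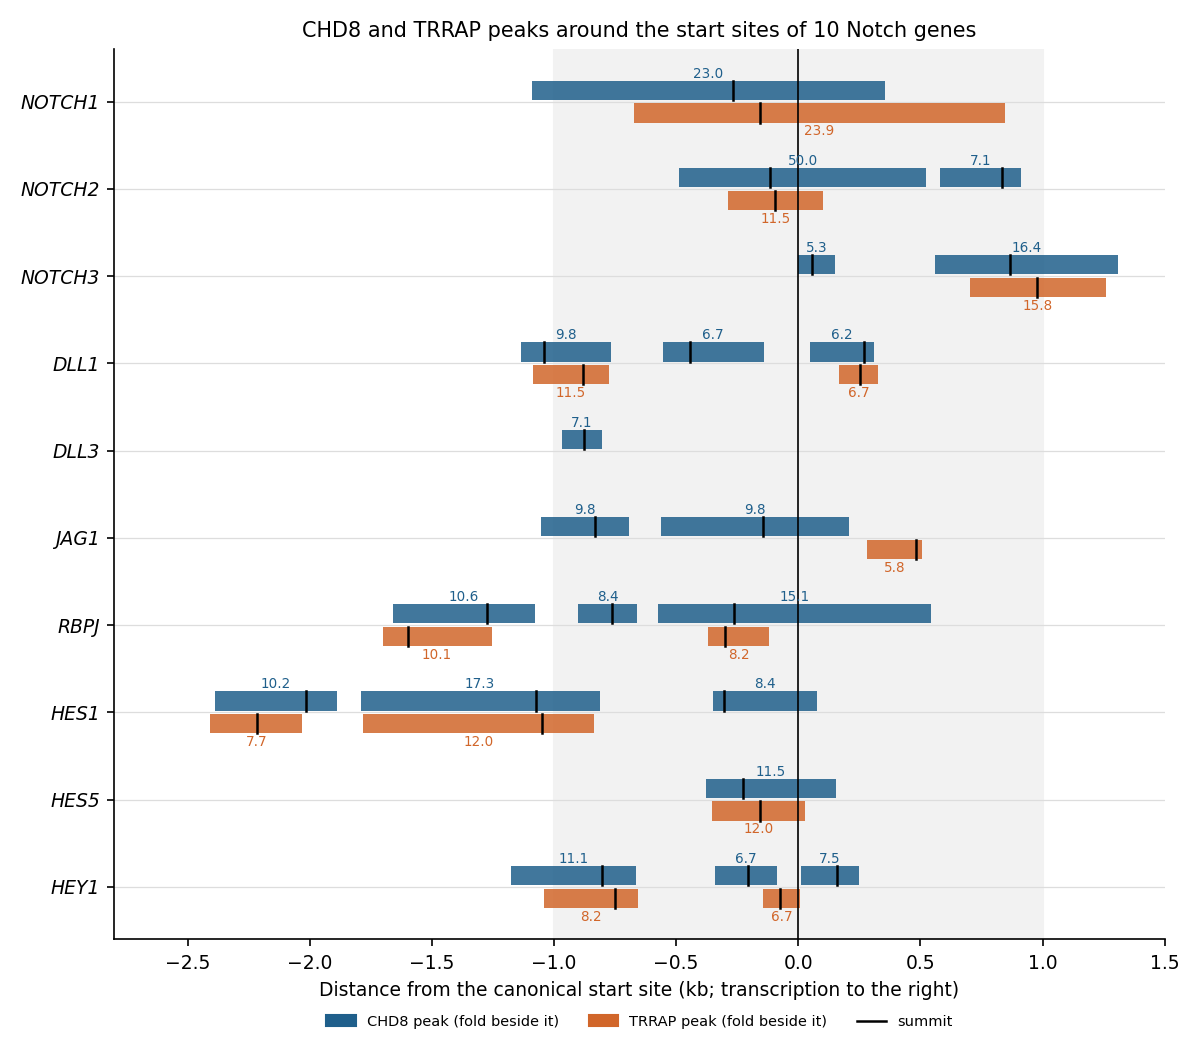
Position of every CHD8 (blue) and TRRAP (orange) peak near the canonical start of the 10 genes, in kb along the direction of transcription, with the summit as a black line and the fold beside each peak; the gray band is the promoter window. CHD8 peaks stood at all 10 genes and TRRAP peaks at 9. The strongest promoter summits of both proteins at NOTCH3, DLL1, HES1 and HEY1, and of CHD8 at DLL3, lay over 500 bp from the start.

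Among the receptors, NOTCH1 had wide promoter peaks of both proteins. The gene is on the minus strand of chromosome 9 (GRCh38, start at 136546048). Its CHD8 peak spanned 1444 bp (chr9:136545695-136547138) with a fold over background of 23.01, within the strongest 5.41% of the CHD8 list. Its TRRAP peak spanned 1515 bp (chr9:136545205-136546719) with a fold of 23.9, within the strongest 3.05% of the TRRAP list. The fold is the value of the authors' peak caller and is used only to describe and rank peaks within a list. Only 0.706% of TRRAP peaks and 2.27% of CHD8 peaks were as wide as these. The CHD8 summit was 268 bp and the TRRAP summit 156 bp upstream of the start, 112 bp apart. The annotated start of the microRNA MIR4674 was 57 bp from the CHD8 summit, and the start of the lncRNA NALT1 was 8 bp from the TRRAP summit, so these peaks are not assignable to NOTCH1 alone. A weaker peak of each protein stood in intron 2, with folds of 7.10 for CHD8 and 7.69 for TRRAP. The intron peaks did not overlap, with 291 bp between them. The sequence centred on the TRRAP summit, printed 5′ to 3′ on the gene's strand (chr9:136546104-136546304, minus strand, GRCh38), is shown because it carried high peaks of both proteins, with the SP-type word GGGCGG in capitals.
NOTCH1 promoter: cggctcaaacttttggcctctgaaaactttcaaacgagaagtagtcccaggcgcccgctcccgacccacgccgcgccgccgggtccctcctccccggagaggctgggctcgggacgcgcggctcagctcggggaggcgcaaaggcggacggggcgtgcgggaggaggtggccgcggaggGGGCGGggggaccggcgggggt

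NOTCH2 had the highest CHD8 fold of the 10 genes, but its reads cannot be placed with certainty. The gene is on the minus strand of chromosome 1, with its start at 120069662. The CHD8 promoter peak (chr1:120069140-120070150) had a fold of 50.0 and a rank within the strongest 0.526% of the list. The TRRAP peak (chr1:120069564-120069950) had a fold of 11.5, within the strongest 21.5%. Their summits were 116 and 95 bp upstream of the start and 21 bp apart. Smaller CHD8 peaks stood in intron 1 at 835 bp (fold 7.10) and 10081 bp (fold 5.77) from the start. All 4 NOTCH2 summits lay in sequence found in several copies of the genome, whereas the other 48 summits of the 10 genes lay in sequence found once. The copies are the NOTCH2NL genes, human-specific partial duplicates of NOTCH2. The 201 bases centred on the NOTCH2 CHD8 summit matched NOTCH2NLA and NOTCH2NLB at 201 bases, NOTCH2NLR at 200 and NOTCH2NLC at 166. NOTCH2NLR was added after the values were seen. The CHD8 promoter folds of these copies were 51.3 (NOTCH2NLA), 45.1 (NOTCH2NLB), 49.5 (NOTCH2NLC) and 51.3 (NOTCH2NLR), close to that of NOTCH2 itself. Their TRRAP folds ran from 8.17 at NOTCH2NLR to 14.4 at NOTCH2NLA. NOTCH2NLC matched at fewer bases, but the sequence around its own CHD8 summit was also found in several copies (median 5). The 5 promoters therefore cannot be told apart with certainty from these peaks. The NOTCH2 promoter sequence (chr1:120069678-120069878, minus strand, GRCh38) is shown because NOTCH2NLA and NOTCH2NLB share all of it. Capitals mark GGGCGG and the E2F word GCGGGAAA.
NOTCH2 promoter: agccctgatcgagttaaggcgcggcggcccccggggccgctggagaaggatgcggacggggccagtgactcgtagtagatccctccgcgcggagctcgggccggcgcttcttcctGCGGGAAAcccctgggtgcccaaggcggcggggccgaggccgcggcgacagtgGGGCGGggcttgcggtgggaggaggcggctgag

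At NOTCH3 the main peaks of both proteins were inside the gene and not at its start. NOTCH3 is on the minus strand of chromosome 19, with its start at 15200995. The CHD8 peak with fold 16.4 (chr19:15199686-15200436) and the TRRAP peak with fold 15.8 (chr19:15199738-15200294) had summits 865 and 976 bp downstream of the start, in intron 1. The whole 557 bp of the TRRAP peak lay inside the CHD8 peak. At the start itself CHD8 had a peak of 154 bp with a fold of 5.33, 54 bp from the start in the 5′ UTR exon. Counted from the strongest peak, it ranked at 99.8% of the CHD8 list, and no TRRAP peak overlapped it. The intron 1 sequence centred on the TRRAP summit (chr19:15199919-15200119, minus strand, GRCh38) is shown for this reason, with CCGCCC, the reverse complement of the SP-type word, in capitals.
NOTCH3 intron 1: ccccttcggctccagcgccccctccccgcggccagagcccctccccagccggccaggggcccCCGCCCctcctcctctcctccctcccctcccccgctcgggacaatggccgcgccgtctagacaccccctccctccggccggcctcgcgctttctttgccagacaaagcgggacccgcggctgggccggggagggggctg

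Of the ligands, DLL1 had the most peaks. The Delta ligand DLL1 is on the minus strand of chromosome 6, and its canonical start is at 170291078. Its interval of 29.4 kb held 7 CHD8 and 7 TRRAP peaks, and 0.789% and 0.245% of coding genes had as many. Around the start, CHD8 had 3 peaks with folds of 9.75, 6.66 and 6.22, and TRRAP had 2 with folds of 11.5 and 6.73. The summits of the strongest promoter peaks lay upstream of the start, at 1043 bp for CHD8 and 881 bp for TRRAP. Further peaks of both proteins lay between 4782 and 6218 bp upstream, and a pair lay in intron 4. The intron 4 pair had folds of 8.43 for CHD8 and 11.0 for TRRAP. The pair with summits 4904 and 4782 bp upstream had folds of 8.43 and 14.9.

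The highest TRRAP fold of the 10 genes was 15605 bp upstream of the canonical DLL1 start. This TRRAP peak (chr6:170306372-170306944) had a fold of 33.5, within the strongest 1.31% of the list. The CHD8 peak over it (chr6:170306300-170307164) had a fold of 12.0, within the strongest 28.5%, and the summits were 17 bp apart. Both summits lay between 2 divergent starts: an upstream alternative start of DLL1 at 170306565 and a start of FAM120B at 170306758. FAM120B runs the other way through the DLL1 interval and has further annotated starts 375 bp downstream and 4243 bp upstream of the canonical DLL1 start. A lncRNA start lay 7297 bp upstream. The peaks of the DLL1 interval can thus belong to FAM120B as well, and the lists do not separate them. The 192 bp between the divergent starts (chr6:170306566-170306757, minus strand, GRCh38) are shown because both summits fell there, with GGGCGG in capitals.
DLL1 upstream element: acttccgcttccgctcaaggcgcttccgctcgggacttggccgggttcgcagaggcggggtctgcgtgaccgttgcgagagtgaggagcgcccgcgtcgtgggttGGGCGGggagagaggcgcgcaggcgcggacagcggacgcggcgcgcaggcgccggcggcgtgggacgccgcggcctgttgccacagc

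**Figure D2:**
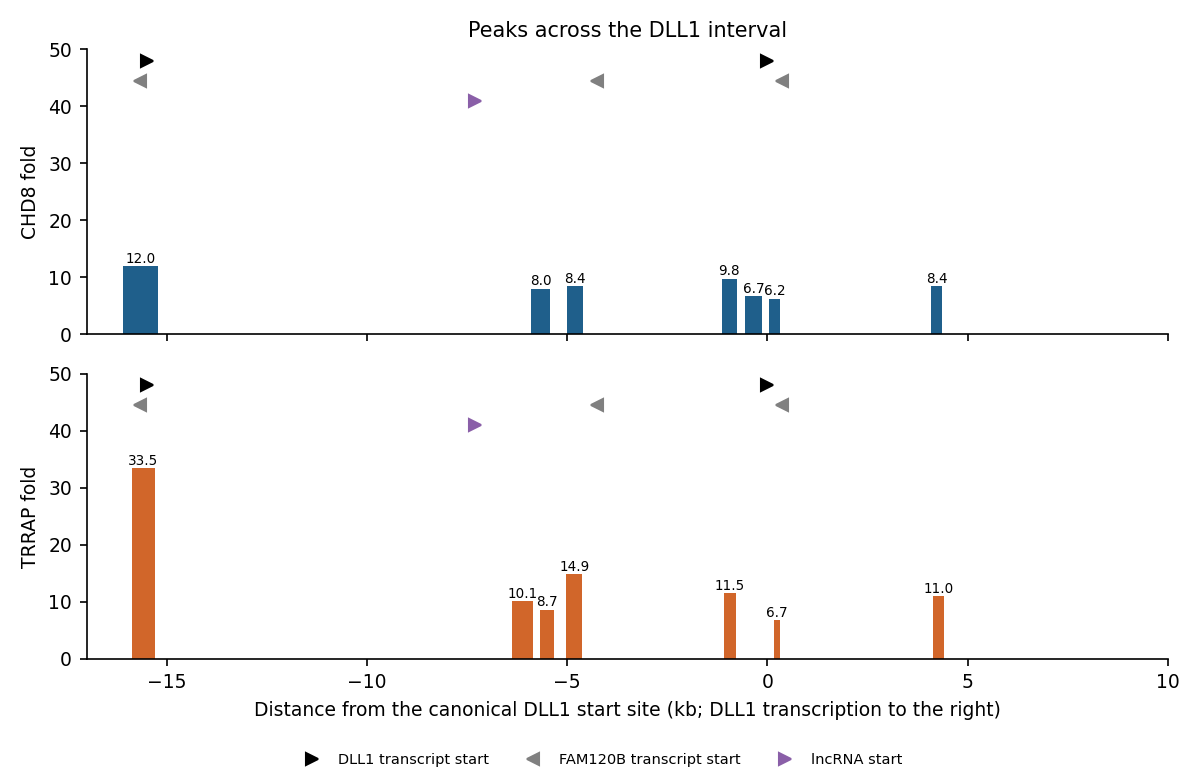
Fold (bar height) and extent (bar width) of each CHD8 (upper) and TRRAP (lower) peak in the DLL1 interval, by distance in kb from the canonical start along the direction of DLL1 transcription; triangles are annotated transcript starts, pointing along transcription. The TRRAP peak with fold 33.5 stood at the divergent DLL1 and FAM120B starts, where CHD8 had a fold of 12.0.

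DLL3 was the gene of the 10 with no TRRAP promoter peak. DLL3, a divergent Delta ligand, is on the plus strand of chromosome 19 with its start at 39498947. Its CHD8 promoter peak (chr19:39497981-39498141) was 161 bp wide, had a fold of 7.10 and ranked at 82.6% of the list. The nearest TRRAP peak was 9000 bp away. Inside the gene, CHD8 had peaks in coding exon 4 (fold 7.10) and coding exon 7 (fold 6.66), and TRRAP had a pair of peaks in exon 7 with folds of 7.21 and 8.65. The exon 7 TRRAP peak with fold 7.21 overlapped the CHD8 peak there, and the other lay 86 bp from it.

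JAG1 had peaks of both proteins at its promoter but no overlap between them. JAG1, the Jagged ligand, is on the minus strand of chromosome 20 with its start at 10673999. CHD8 had 2 promoter peaks with a fold of 9.75 each, at chr20:10673791-10674561 and chr20:10674694-10675054, with summits 143 and 831 bp upstream. The TRRAP peak (chr20:10673492-10673719) had a fold of 5.78, a −log10 q of 5.3 and a rank of 93.9%, with its summit 481 bp downstream in coding exon 1. The edges of the nearest peaks of the 2 proteins were 71 bp apart and their summits 624 bp apart. JAG1 was the only one of the 10 genes without an overlapping pair. The remaining CHD8 peak, in intron 2, had a fold of 6.66.

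RBPJ, which carries the Notch intracellular domain to DNA, had all of its peaks near its canonical start. The gene is on the plus strand of chromosome 4 with its canonical start at 26321014, and its interval spans 276.7 kb. CHD8 had peaks with folds of 15.1 (chr4:26320439-26321555, 1117 bp wide), 8.43 and 10.6, with summits 262, 763 and 1274 bp upstream. TRRAP had peaks with folds of 8.17 (chr4:26320645-26320892) and 10.1 (chr4:26319312-26319757), with summits 301 and 1596 bp upstream. Both TRRAP peaks overlapped a CHD8 peak, and the CHD8 peak with fold 8.43 had no TRRAP peak over it. The outer pair lay beyond the promoter window, beside alternative starts of RBPJ 1304 to 1378 bp upstream. No other part of the interval held a peak of either list.

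Among the effectors, the strongest peaks of HES1 were about 1 kb upstream of the gene. HES1 is on the plus strand of chromosome 3 with its start at 194136148. The CHD8 peak with fold 17.3 (chr3:194134356-194135334) and the TRRAP peak with fold 12.0 (chr3:194134366-194135310) shared 945 bp and had summits 1072 and 1049 bp upstream of the start. They counted as promoter peaks because their edges entered the window. A lncRNA, ENSG00000289385, has an annotated start at 194135219 on the same strand, 143 bp from the CHD8 and 120 bp from the TRRAP summit. A second pair stood 2014 bp (CHD8, fold 10.2) and 2217 bp (TRRAP, fold 7.69) upstream. At the HES1 start itself CHD8 had a peak with fold 8.43 and a summit 305 bp upstream, and the nearest TRRAP peak was 488 bp away.

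The 250 bases before the HES1 start are shown because they hold the words through which RBPJ and HES1 are known to bind, while the strongest peaks lay farther out. Capitals mark the RBPJ word TGGGAA and the N-box CACNAG on either strand. The RBPJ word stood at 84 to 79 and at 70 to 65 bp before the start, and the N-box at 3 places. The lower sequence is the part under the strong upstream peaks, with an N-box and the E-box CACGTG in capitals and no RBPJ word. The first is chr3:194135898-194136147 and the other chr3:194134999-194135199, both on the plus strand of GRCh38.
HES1 promoter: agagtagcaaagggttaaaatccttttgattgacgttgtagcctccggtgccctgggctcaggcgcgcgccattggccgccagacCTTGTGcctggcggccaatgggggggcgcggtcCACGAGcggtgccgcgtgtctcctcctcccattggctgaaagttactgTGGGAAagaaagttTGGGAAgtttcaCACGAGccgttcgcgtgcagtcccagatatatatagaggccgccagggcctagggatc
HES1 distal part: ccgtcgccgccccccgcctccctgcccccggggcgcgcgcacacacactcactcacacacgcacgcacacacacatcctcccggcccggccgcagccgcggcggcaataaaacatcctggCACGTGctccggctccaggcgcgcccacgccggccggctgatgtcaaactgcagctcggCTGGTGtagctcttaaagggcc

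HES5 had a single overlapping pair, over its start at 2530263 on the minus strand of chromosome 1. The CHD8 peak (chr1:2530108-2530642) had a fold of 11.5 and the TRRAP peak (chr1:2530238-2530615) a fold of 12.0. Their summits were 226 and 155 bp upstream of the start. A lncRNA, ENSG00000272449, starts on the opposite strand at 2530064, 199 bp downstream of the HES5 start, so the pair is not assignable to HES5 alone. A further TRRAP peak with fold 9.12 stood 2784 bp upstream, and no CHD8 peak lay within 2330 bp of it. The sequence under the pair (chr1:2530264-2530543, minus strand, GRCh38) is shown with the RBPJ word in capitals. The word stood at 224 to 219 bp before the start, on the opposite strand, and at 80 to 75 bp before it.
HES5 promoter: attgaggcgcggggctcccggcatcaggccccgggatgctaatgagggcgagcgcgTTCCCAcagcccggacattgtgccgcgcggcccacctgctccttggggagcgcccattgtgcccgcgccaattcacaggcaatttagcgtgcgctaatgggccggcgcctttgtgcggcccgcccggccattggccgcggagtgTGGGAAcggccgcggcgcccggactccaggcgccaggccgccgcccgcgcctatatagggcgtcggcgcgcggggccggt

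**Figure D3:**
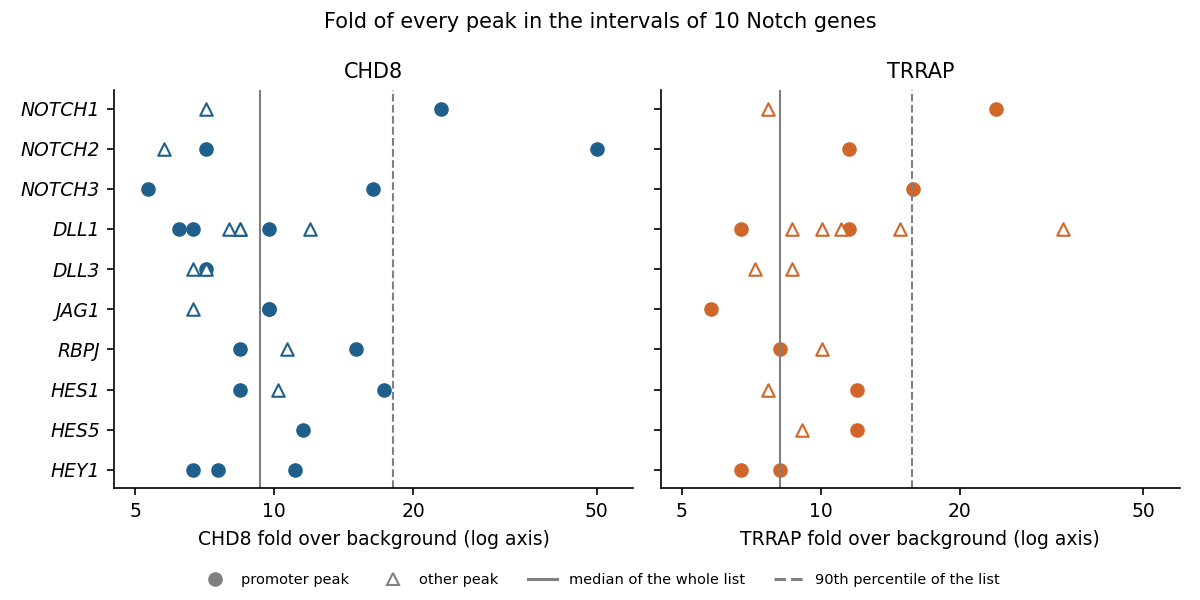
Fold of every CHD8 (left) and TRRAP (right) peak in the intervals of the 10 genes on a log axis; filled circles are promoter peaks, open triangles are other peaks, and the lines mark the median and the 90th percentile of the whole list. NOTCH1 and NOTCH2 exceeded the CHD8 90th percentile of 18.1, and NOTCH1 and a DLL1 peak exceeded the TRRAP value of 15.8, at which NOTCH3 lay.

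HEY1 had 3 CHD8 and 2 TRRAP peaks, all in its promoter window. HEY1 is a HES-related repressor, on the minus strand of chromosome 8 with its start at 79767767. The CHD8 peaks had folds of 11.1, 6.66 and 7.54, with summits 805 and 205 bp upstream and 160 bp downstream. The TRRAP peaks had folds of 8.17 and 6.73, with summits 750 and 73 bp upstream, and each overlapped 1 of the 2 upstream CHD8 peaks. The downstream CHD8 peak ended 1 bp short of a TRRAP peak. The start of the lncRNA LINC01607 lay at 79768110, at the end of a CHD8 peak.

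By fold, the 30 CHD8 peaks of the 10 genes lay near the middle of the list. Their median fold was 8.43, against 9.31 in the whole CHD8 list, and 13 of 30 ranked above the middle of that list. The 22 TRRAP peaks had a median fold of 9.60, against 8.17 in the whole list, and 14 of 22 ranked above its middle. Folds ran from 5.33 to 50.0 for CHD8 and from 5.78 to 33.5 for TRRAP. Median widths were 391 bp for CHD8 and 366 bp for TRRAP, against 376 and 229 bp in the whole lists. The median fold of a gene's strongest promoter peak was 13.3 over the 10 genes for CHD8, against 12.0 over all bound genes, and 11.5 over 9 genes for TRRAP, against 8.65. Of the 30 CHD8 peaks 19 were promoter peaks, and of the 22 TRRAP peaks 11 were. The shares of promoter peaks in the whole lists are not given here, so these counts are description only.

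The share of overlapping peaks at the Notch genes had an interval that held the share of the whole list, for both proteins. Of the 22 TRRAP peaks 18 overlapped a CHD8 peak by at least 1 bp (81.8%, Wilson 95% interval 61.5 to 92.7%), against 86.8% of all TRRAP peaks. Of the 30 CHD8 peaks 17 overlapped a TRRAP peak (56.7%, interval 39.2 to 72.6%), against 48.6% of all CHD8 peaks. Both intervals cover counting error only and treat peaks as independent. Peaks of 1 gene share their locus and are not replicates, and DLL1 alone held 7 peaks of each protein. The intervals therefore do not test whether the shares differ from those of the lists. The overlaps made 18 pairs, with summits 17 to 442 bp apart and a median of 111.5 bp, against 84.0 bp over the 12780 pairs of the lists. CHD8 was the wider peak in 16 of the 18 pairs, and the share over all pairs is not given here. CHD8 peaks were also wider over the whole lists, with medians of 376 bp against 229 bp for TRRAP. TRRAP held the higher rank within its own list in 13 of the 18 pairs, and over all pairs it did so in 37.6%. DLL1 gave 7 of these 13 pairs, and the other genes gave 6 of 11. The lists differ in length and threshold, so a rank difference shows no difference in binding.

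**Figure D4:**
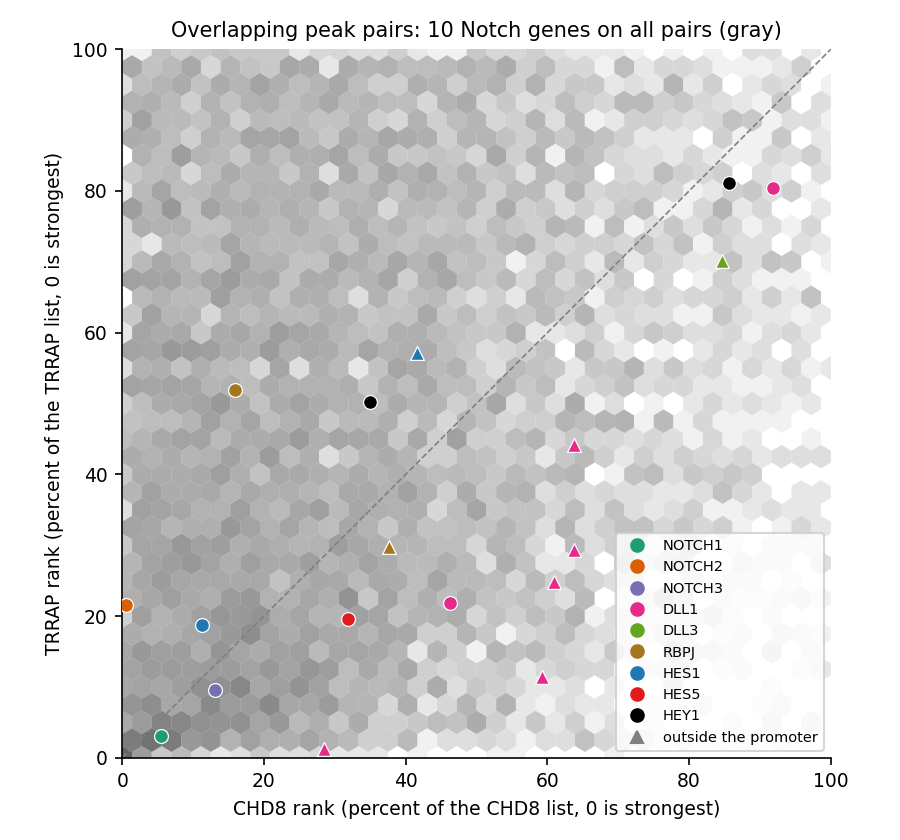
Rank of the CHD8 peak (x) and the TRRAP peak (y) of each overlapping pair, as a percent of its own list with the strongest at 0; coloured points are the 18 pairs of the Notch genes (triangles outside the promoter), gray shading is the density of all pairs, and the dashed line marks equal ranks. All 7 DLL1 pairs lay below the line, where TRRAP ranks higher, and 5 pairs lay above it: NOTCH2, 1 of the 2 RBPJ pairs, both HES1 pairs and 1 of the 2 HEY1 pairs.

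Several promoter peaks per gene were common among the Notch genes, and the strongest was not always the one nearest the start. These 2 measures were chosen after the values were seen and are given as description. At least 2 CHD8 promoter peaks stood at 7 of the 10 genes, against 23.2% of all genes with a CHD8 promoter peak; NOTCH1, DLL3 and HES5 had 1. When peaks closer than 200 bp were joined the number was 4 of 10, against 8.84% of all genes with a CHD8 promoter peak. With 500 bp it was 0, against 2.36%, so the count rests on the gaps between neighbouring peaks. The strongest CHD8 promoter summit lay over 500 bp from the canonical start at 5 of the 10 genes (NOTCH3, DLL1, DLL3, HES1 and HEY1), against 9.52% of bound genes. The strongest TRRAP promoter summit did so at 4 of 9 genes (NOTCH3, DLL1, HES1 and HEY1), against 12.6%. Taking instead the promoter peak nearest the start, the CHD8 summit lay over 500 bp away at 1 of 10 genes, DLL3 (5.70% of bound genes), and the TRRAP summit at 2 of 9, NOTCH3 and HES1 (7.51%). So 9 of the 10 genes had a CHD8 promoter summit within 500 bp of the start, in NOTCH3, DLL1, HES1 and HEY1 from a weaker peak. The median distance of the strongest summit was 536.5 bp for CHD8 and 481 bp for TRRAP, against 109 and 133 bp over all bound genes.

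Of the words searched, those of RBPJ and of NFY occurred at the promoters of the 3 effectors and of no other Notch gene. Words were searched on both strands with no mismatch in the 250 bases before each canonical start. TGGGAA occurred at HES1, HES5 and HEY1, 30.0% of the 10, against 19.6% of all promoters. The longer form GTGGGAA, which contains it, occurred at the same 3 genes, against 5.10% of all promoters. GGGCGG occurred at 9 of the 10 genes, all but HES1, against 59.0% of promoters. The E-box CACGTG occurred at none (7.87% of promoters), and neither did the ETS word CCGGAA (19.4%). The N-box CACNAG occurred at 4 genes (30.2% of promoters) and the NFY word CCAAT at the 3 effectors (34.3%). The E2F words occurred at NOTCH2 (3.75% of promoters). Within 100 bp of a summit, TGGGAA occurred at 3 of 30 CHD8 peaks (10.0%, against 15.5% of the list) and at 5 of 22 TRRAP peaks (22.7%, against 14.9%). GTGGGAA occurred at the same number of TRRAP peaks, 5 (22.7%, against 5.05% of the list), and at 2 CHD8 peaks (6.67%, against 3.85%). A word match describes the letters and not a bound site.

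Beyond the 10 genes, 64 further genes of the pathway were listed by role. Starts of neighbouring genes are not given here for these 64, so their peaks may belong to a neighbour as well. A CHD8 promoter peak stood at 49 of the 64 (76.6%, Wilson 95% interval 64.9 to 85.3%), a TRRAP peak at 33 (51.6%, 39.6 to 63.4%), both at 31 (48.4%, 36.6 to 60.4%) and neither at 13. The shares over all protein-coding genes were 55.9%, 34.9% and 34.0%, and the share with neither is not given here. All 5 further ligands were without a promoter peak of either list: DLL4, JAG2, DLK1, DLK2 and DNER. No peak lay anywhere in their intervals either, although their promoters fell in CpG deciles 6 to 10. The further receptors were NOTCH4, with no promoter peak, and the 3 NOTCH2NL copies, with both peaks in sequence shared with NOTCH2. NOTCH4 did have overlapping CHD8 and TRRAP peaks near its end, with folds of 14.6 and 13.4.

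Of 8 further effectors and feedback genes, 5 had a CHD8 and 4 a TRRAP promoter peak (62.5% and 50.0%, against 55.9% and 34.9% of all genes). HES4, a HES1 relative, had folds of 16.8 for CHD8 and 17.7 for TRRAP. NRARP, a feedback inhibitor of the Notch nuclear complex, had folds of 8.87 and 14.4. HES6 (7.54 and 5.30) and HEY2 (7.10 and 6.73) had weaker peaks, and HES3 had CHD8 alone (10.6). HES2, HES7 and HEYL had neither at the promoter. HEYL had an overlapping pair inside the gene with folds of 7.10 and 12.5. The HES7 interval held 4 CHD8 and 3 TRRAP peaks, with overlapping pairs in coding exon 4 (7.98 and 7.21) and upstream of the promoter window (9.31 and 6.26).

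Of 19 nuclear coactivators and corepressors 18 had a CHD8 and 12 a TRRAP promoter peak (94.7% and 63.2%, against 55.9% and 34.9% of all genes). Of these 19 promoters 16 lay in CpG deciles 7 to 10, where 79.2 to 86.1% of all genes had a CHD8 peak. A TRRAP peak stood at 53.8, 61.1 and 67.6% of all genes in deciles 8, 9 and 10, and at a lower share in decile 7. The TRRAP share of 63.2% thus lay within the range of these deciles. The part of CpG content in the counts of the 19 genes was not tested. Among the 19, RBPJL, a tissue-restricted relative of RBPJ, had neither. KDM5A, an H3K4 demethylase, had the highest CHD8 fold of a promoter peak, 39.4, and SPEN, the corepressor that binds RBPJ, the highest TRRAP fold of a promoter peak, 23.5. Outside the promoter window SPEN had peaks of both proteins near an alternative start (42.0 for CHD8, 23.9 for TRRAP), and MAML3 had a TRRAP peak of 23.9 in an intron. The Mastermind coactivator MAML3 had promoter folds of 27.0 and 22.5. Of 9 receptor-cleavage genes 7 had CHD8 and 4 TRRAP: the gamma-secretase subunit NCSTN had folds of 30.5 and 9.12, and the protease ADAM17 22.1 and 16.3. Of 5 glycosylation genes 4 had CHD8 and 2 TRRAP, with a CHD8 fold of 31.4 at POGLUT1, which adds O-glucose to Notch. MFNG (a Fringe glycosyltransferase), APH1B (a gamma-secretase subunit) and FURIN (the convertase of the receptor precursor) had neither. Of 4 genes of ligand ubiquitination 3 had CHD8 and 3 TRRAP, and of 10 genes of receptor turnover 9 had CHD8 and 5 TRRAP. NEURL1 (TRRAP fold 7.69), a ubiquitin ligase that acts on ligands, and DTX1 (8.65), one that acts on receptors, had TRRAP without CHD8. They were named after their values were seen. Over all genes 34.9% had a TRRAP promoter peak and 34.0% had both.

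**Figure D5:**
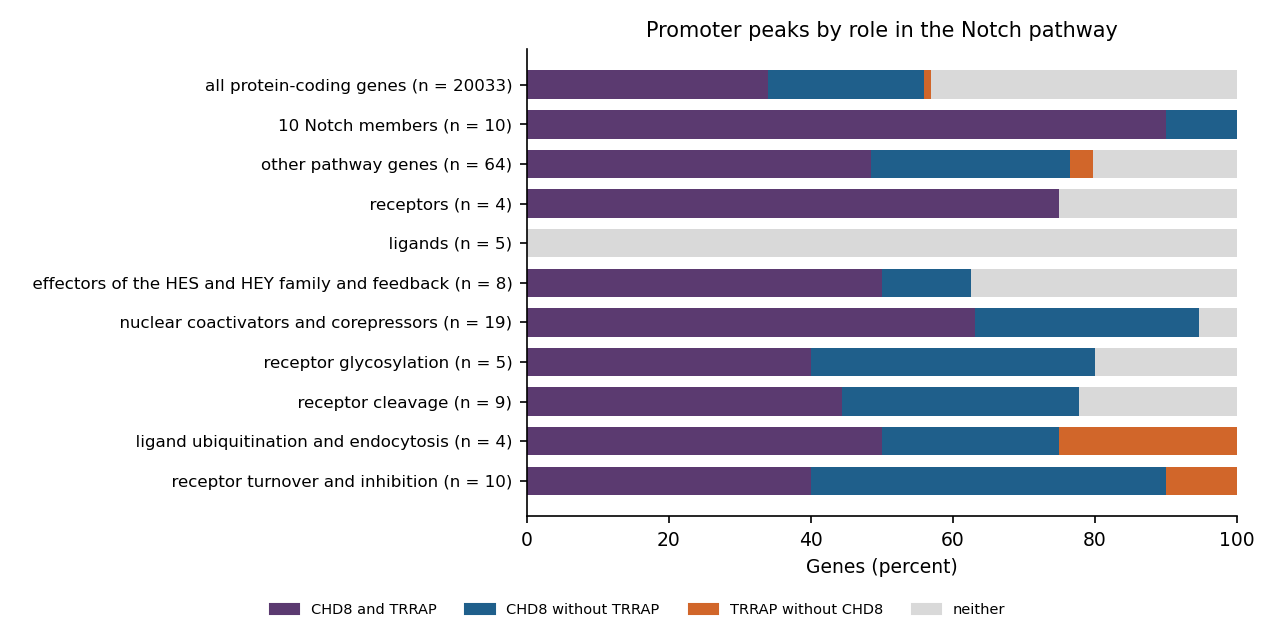
Percent of genes in each role with a promoter peak of CHD8 and TRRAP, CHD8 without TRRAP, TRRAP without CHD8, or neither; n is the number of genes. The 10 Notch genes had both at 9 and CHD8 alone at 1, and the 5 further ligands had neither.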

How the data were processed

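CHD8 and TRRAP ChIP-seq peaks of wild-type H9-derived neural stem cells were analysed as deposited, from 1 library per antibody. The submitters' processing notes name GRCh38, HISAT2 and MACS2 2.1.1.20160309 without giving their roles; the control, duplicate filter and handling of multi-mapping reads are not given in the sources used here. Per the file headers, each deposited peak list gives a −log10 p-value, a −log10 q-value, a fold over background (a ratio), a score and a summit. The lists are cut at q of 0.0001 (CHD8) and 0.001 (TRRAP). Read depth is unknown, so no interval was put on a fold.

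Peaks were assigned to GENCODE 44 genes on GRCh38, and no peak lay past the end of a chromosome. The promoter was 1 kb either side of the start of the canonical transcript, and an overlap was at least 1 bp. Each peak was ranked within its list by −log10 q. Words were searched on both strands, and summits were searched for repeated copies over 101 bp. CpG ratios used 500 bp either side of the start. Counting was tested on simulated data with planted peaks. Python 3.11.15, pandas 2.3.3, numpy 2.4.6, scipy 1.17.1, pysam 0.24.0 and samtools 1.23.1 were used. The text names the 10 genes and, of the other pathway genes, those fixed by a rule (the ligands, receptors and HES, HEY and feedback genes, genes with neither peak, and the 3 highest folds of each list in the remaining roles). The genes, lists and rules were chosen with earlier results of these data known. Alternatives changed the window, the overlap, the start, the strength cut and the treatment of repeated sequence.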

Additional observations from a re-analysis of the deposited data

How the results depend on the processing

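No paired analysis was possible because each antibody had 1 library. Of 74 recomputed counts and shares, 65 stayed within 1.5 times the reported value or its interval. Some of these could hardly move. A cut at q of 0.0001 left the CHD8 list as it was and kept 14712 of the 14735 TRRAP peaks. A wider window or added start sites could not lower a count. With only peaks above the middle rank of each list, 21 other pathway genes had a TRRAP promoter peak and 18 had both. The peaks of the 10 genes numbered 13 for CHD8 and 14 for TRRAP, and 57.1% of those TRRAP peaks overlapped a CHD8 peak. This cut also removed CHD8 peaks that they could overlap, and the share over the whole lists under it is not given here. Of the 10 genes, 6 then had a TRRAP promoter peak in place of 9, which is at the limit of 1.5 times and was counted as within it. Joining CHD8 peaks closer than 200 bp left 4 genes with at least 2 promoter peaks (8.84% of all bound genes). Joining those closer than 500 bp left 0 (2.36%). These joins, leaving out NOTCH2 (6 genes with at least 2 peaks) and the count of distances from the nearest peak, were chosen after seeing the data. Taking the promoter peak nearest the start in place of the strongest put the summit downstream: at 268 bp for DLL1 CHD8, 160 bp for HEY1 CHD8 and 251 bp for DLL1 TRRAP. Of 38 values for single genes, 26 came from the same peak and did not change. With a change of peak, 9 moved and these 3 changed side. With that choice the CHD8 summit lay over 500 bp from the start at 1 gene in place of 5 and the TRRAP summit at 2 in place of 4. NOTCH3 CHD8 moved from 865 to 54 bp downstream (fold 16.4 to 5.33), HES1 CHD8 from 1072 to 305 bp upstream (17.3 to 8.43) and HEY1 TRRAP from 750 to 73 bp upstream (8.17 to 6.73).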
